A study of Mus musculus with 5 samples.

Results

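The 10 genes described here are Fos, Fosb, Junb, Egr1, Egr3, Arc, Npas4, Nr4a1, Nr4a3 and Homer1, chosen by symbol from the 31053 genes of the count tables, and all 10 had UMIs (unique molecular identifiers, 1 for each captured RNA molecule). They are immediate-early genes: in a neuron that fires strongly, calcium entry and kinase signalling activate transcription factors such as CREB and SRF that are already present, and these genes are transcribed within minutes without new protein synthesis. Fos, Fosb and Junb encode subunits of the dimeric AP-1 transcription factor, Egr1 and Egr3 zinc-finger transcription factors, Npas4 a bHLH-PAS factor that answers mainly to calcium entry, and Nr4a1 and Nr4a3 orphan nuclear receptors. Arc and the short form of Homer1 act at synapses. Several of them also answer to growth factors, cytokines and tissue handling in glia, microglia and vessel cells, and in the hypothalamus Fos is the usual marker of neurons activated by a stimulus.

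The nuclei came from the paraventricular hypothalamus of male mice on a C57BL6 background, with 2 to 4 mice pooled for each library, and were sorted with a gate that favoured larger nuclei. The saline and VPA libraries came from OT-Cre; Rosa26tm9(CAG-tdTomato)Hze (Ai9) mice at 5 weeks, whose dams received saline at 10 mL/kg or sodium valproate (VPA) at 500 mg/kg on gestation day 12.5. The hM3 control library and the 2 CNO libraries came from OT-Cre; Rosa26dreaddm3 (stop-hM3) mice at 5 to 7 weeks, all exposed to VPA before birth and injected with an AAV in the paraventricular and supraoptic regions. These mice received saline (control) or CNO, the ligand of the hM3 receptor, at postnatal day 2, and Cre under the oxytocin gene limits both alleles to oxytocin cells. The nuclei were thus taken weeks after CNO. The labels describe isoflurane anaesthesia and perfusion with cold saline before dissection of Ai9 mice. With 1 library each for saline, VPA and the hM3 control, differences between those libraries have no replicate check, and treatment cannot be told apart from the pool of mice, the dissection or the sort.

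The 5 libraries held 52506958 to 76243280 UMIs in 4440 to 10904 barcodes, with median depths from 3722.5 UMIs (CNO replicate 2) to 11913 UMIs (CNO replicate 1), and pairs of libraries shared 4 to 23 barcodes. After filtering, 17182 nuclei were neuron-like, 4796 astrocyte-like, 2504 oligodendrocyte-like, 664 OPC-like (oligodendrocyte precursors) and 454 microglia-like, named from markers in clusters built without the 10 genes. The neuron marker list of 6 genes summed to 24120 to 26210 CPM (UMIs scaled to the same total in each sum) in neuron-like nuclei of the 5 libraries and to 2452 to 3157 CPM in astrocyte-like nuclei, and the 9 astrocyte markers to 81.4 to 135.5 CPM in neuron-like nuclei. CNO replicate 2 stood apart: 1439 of its 1581 astrocyte-like nuclei (91.0%) lay in 1 interferon-rich cluster led by Apoe, Cst3, Gm9925 and Cxcl10, where 1.18% of saline, 1.95% of VPA, 13.97% of control and 21.5% of CNO replicate 1 astrocyte-like nuclei did. Levels below are CPM of summed nuclei, listed in the order saline and VPA (Ai9 mice), then hM3 control and the CNO libraries by replicate number, and intervals are 95% exact intervals that cover counting error only.

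Whether reads from introns were counted is not given in the sources used here, and gene lengths differ, so levels are not compared between genes. In GENCODE vM21 (GRCm38), Fos spans chr12:85473890-85477273 on the plus strand and Npas4 chr19:4984355-4990316 on the minus strand. Nr4a1 spans chr15:101254269-101274795, Nr4a3 chr4:48045153-48086447 and Homer1 chr13:93299635-93405129, all on the plus strand. Homer1 is 105.5 kb long with 12 annotated transcripts, and a count for the gene does not separate the activity-induced short form from the long form. Junb (chr8:84974484-84978718, minus strand) overlaps Prdx2 on the other strand by 351 bases, and whether the counting used strand is not given in the sources used here.

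Promoter entries from RefSeq (GRCm38.p6) matched 7 of the 10 genes. The 250 bases before the start are shown for the 4 transcription factor genes on which most results below turn, with Nr4a3 cut to the 98 bases before its first annotated exon. The Nr4a1 window lies inside the GENCODE gene span, before the RefSeq start. Capitals mark the core of the cAMP response element to which CREB binds (TGACG, or CGTCA on the other strand), and in Fos also the TATA box (TATAAA, in 12.4% of RefSeq windows).
Fos, chr12:85473640-85473889, plus strand: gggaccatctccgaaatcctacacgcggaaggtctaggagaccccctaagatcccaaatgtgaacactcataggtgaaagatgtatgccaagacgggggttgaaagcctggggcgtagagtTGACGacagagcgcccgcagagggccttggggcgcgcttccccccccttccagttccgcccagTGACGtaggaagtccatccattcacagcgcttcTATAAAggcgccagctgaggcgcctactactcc
Junb, chr8:84978749-84978998, minus strand: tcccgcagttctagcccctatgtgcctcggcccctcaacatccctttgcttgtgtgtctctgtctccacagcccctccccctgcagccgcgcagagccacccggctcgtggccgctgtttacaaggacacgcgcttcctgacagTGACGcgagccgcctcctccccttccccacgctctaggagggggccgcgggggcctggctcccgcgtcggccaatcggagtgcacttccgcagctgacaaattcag
Nr4a1, chr15:101266596-101266845, plus strand: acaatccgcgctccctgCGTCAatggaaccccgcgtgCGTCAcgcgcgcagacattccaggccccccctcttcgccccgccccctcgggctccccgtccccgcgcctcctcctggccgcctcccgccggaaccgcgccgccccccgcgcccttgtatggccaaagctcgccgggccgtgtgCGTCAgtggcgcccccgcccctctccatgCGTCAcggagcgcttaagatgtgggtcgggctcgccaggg
Nr4a3, chr4:48045055-48045152, plus strand: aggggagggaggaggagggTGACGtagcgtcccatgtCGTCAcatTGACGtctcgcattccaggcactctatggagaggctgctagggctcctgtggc
This core occurred on either strand at least once in all 7 matched genes, against 17.8% of 32851 RefSeq promoter windows. Nr4a1 and Nr4a3 held 4 matches each in their 250 bases, Homer1 held 3 in 1 of its 2 windows, Fos and Npas4 held 2, and Fosb and Junb held 1. All 250 bases of the Npas4 window and 152 of the Nr4a3 window lie in annotated GENCODE exons. In Fos the match nearest the start lay at positions -66 to -62. The full element TGACGTCA, found in 1.55% of windows, matched none of the 7, nor did the AP-1 site TGANTCA (6.75%), the NGFI-B element AAAGGTCA that NR4A receptors bind (1.34%) or the CArG box of SRF (1.47%). A match describes the letters in a window and shows nothing about binding in these nuclei.

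Across cell classes the genes split into those read mainly in neurons and those read as high or higher elsewhere. Each class of each library was summed and tested in edgeR's quasi-likelihood fit with library as a block (33 sums, 14665 genes), where Junb, Egr1, Arc, Npas4, Nr4a1, Nr4a3 and Homer1 passed the filter on low counts and Fos, Fosb and Egr3 did not. Of the 7 tested, 4 were lower in astrocyte-like than in neuron-like nuclei and 0 higher, where 36.4% of all genes tested were lower and 37.3% higher. Against oligodendrocyte-like nuclei 5 were lower and 1 higher (background 36.5% and 32.8%), and against microglia-like nuclei 2 were lower and 2 higher (33.8% and 25.3%). With that many of all genes differing between classes, the counts say little about the 10 as a group, and the single genes carry the description.

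**Figure D1:**
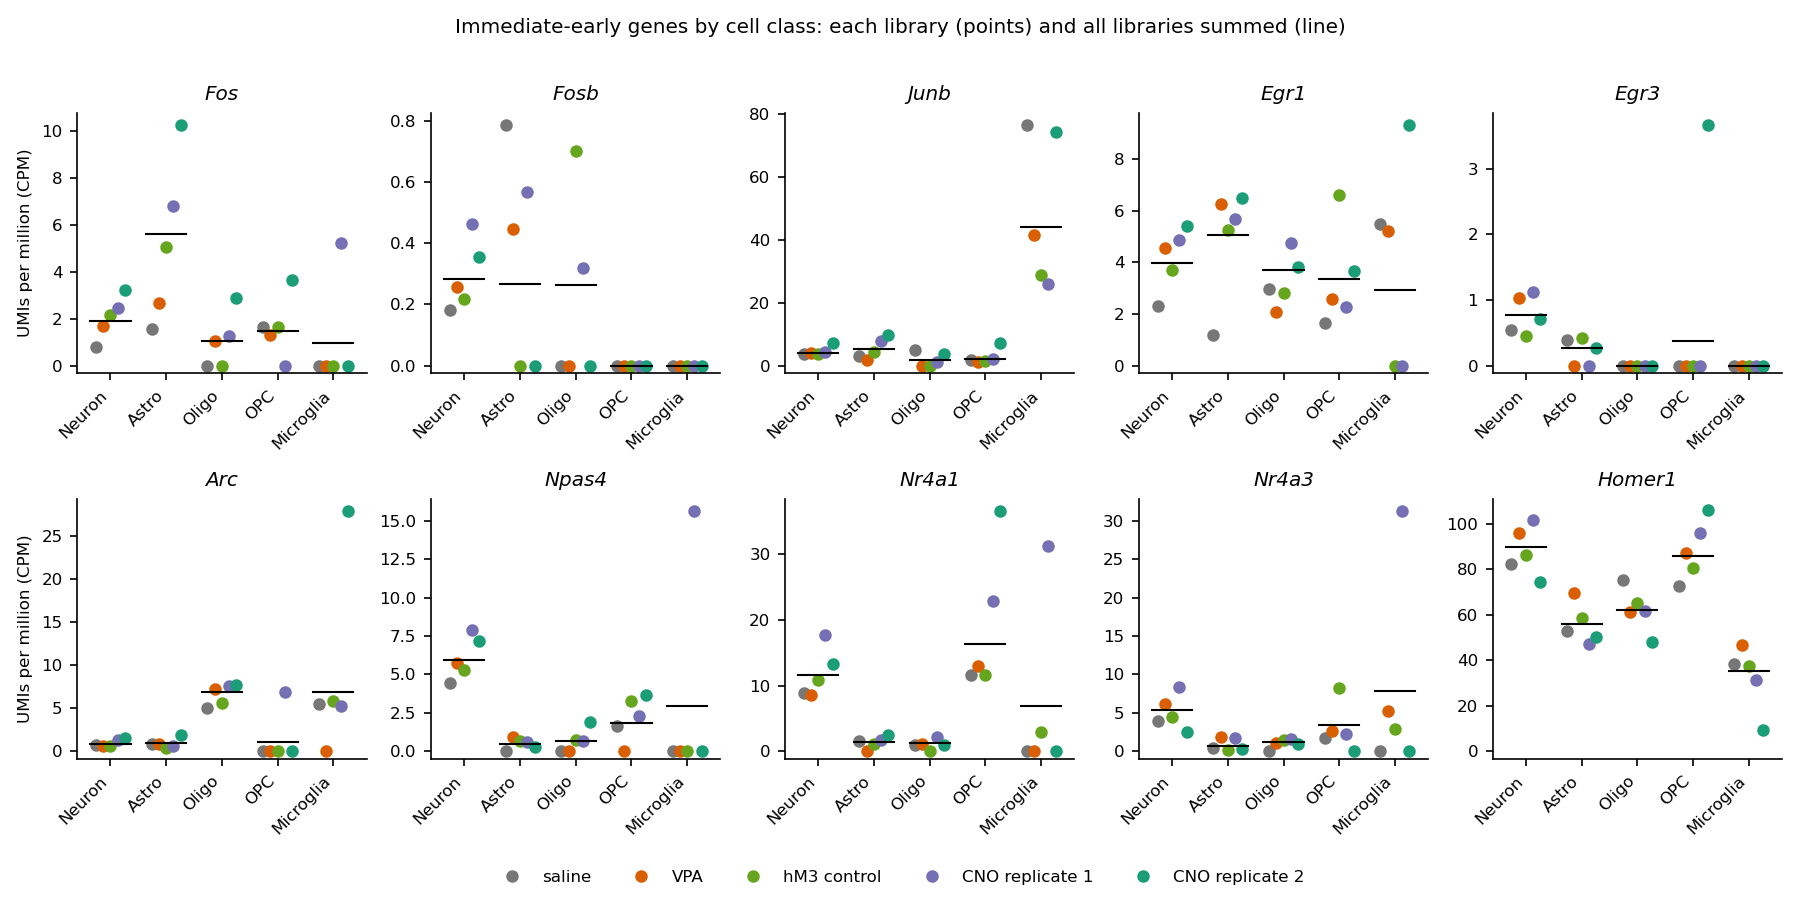
Level of each of the 10 genes (CPM, linear axis from 0, its own scale in each panel) in 5 cell classes, with 1 point for each library and a line at the value of all libraries summed. Npas4 lies higher in neuron-like than in astrocyte-like nuclei in all 5 libraries, Arc lies higher in oligodendrocyte-like than in neuron-like nuclei in all 5, and Junb is highest in microglia-like nuclei in all 5; the microglia-like points rest on few UMIs.

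Npas4 was higher in neurons than in astrocyte-like and oligodendrocyte-like nuclei. Its level in neuron-like nuclei was 4.42, 5.73, 5.28, 7.89 and 7.17 CPM in the 5 libraries, against 0, 0.892, 0.631, 0.566 and 0.270 CPM in astrocyte-like nuclei (7 UMIs in all) and 0 to 1.92 CPM in oligodendrocyte-like nuclei (5 UMIs). The neuron-like libraries did not overlap with those of these 2 classes. Microglia-like nuclei had 3 UMIs, all in CNO replicate 1 (15.7 CPM, interval 3.23 to 45.8), and 0 in the other 4 libraries. The difference was -3.70 on the log2 scale for astrocyte-like nuclei (SE 0.369, adjusted p = 4.42e-11) and -3.18 for oligodendrocyte-like nuclei (SE 0.458, adjusted p = 1.7e-07). At least 1 Npas4 UMI was found in 6.46% of neuron-like nuclei, whose median depth was 9668 UMIs, and in 0.20% of oligodendrocyte-like nuclei, whose median depth was 2703. The neuron marker list in oligodendrocyte-like nuclei summed to 937.3 to 2131 CPM, and its part in the glial Npas4 UMIs was not tested. Ependymal-like nuclei had 12.5 CPM (interval 4.604 to 27.3), which rests on 6 UMIs.

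The NR4A receptor genes were lower in astrocyte-like and oligodendrocyte-like nuclei than in neurons, and not in every other class. Nr4a1 was read at 8.91, 8.59, 10.8, 17.7 and 13.3 CPM in neuron-like nuclei and at 0 to 2.43 CPM in astrocyte-like and 0 to 2.22 CPM in oligodendrocyte-like nuclei, with log2 differences of -3.13 (SE 0.277, adjusted p = 1.1e-12) and -3.27 (SE 0.373, adjusted p = 7.59e-10). In OPC-like nuclei Nr4a1 was 11.6, 12.995, 11.5, 22.8 and 36.7 CPM (44 UMIs), above the neuron-like value in each of the 5 libraries; this contrast was not tested. Nr4a3 was 3.87, 6.13, 4.51, 8.42 and 2.47 CPM in neuron-like nuclei and 0.21 to 1.78 CPM in astrocyte-like nuclei, a log2 difference of -2.80 (SE 0.381, adjusted p = 3.4e-08), and lower by -2.18 in oligodendrocyte-like nuclei (SE 0.441, adjusted p = 4.09e-05). In microglia-like nuclei 6 of the 7 Nr4a1 UMIs and 6 of the 8 Nr4a3 UMIs came from CNO replicate 1, where the neuron markers were also highest for that class at 5461 CPM against 1697 to 2935 CPM elsewhere; their part in these levels was not tested. Nr4a3 in microglia-like nuclei summed to 7.85 CPM against 5.37 CPM in neuron-like nuclei, a fitted log2 difference of 0.03 (SE 0.574, adjusted p = 0.974). The Nr4a1 level in microglia-like nuclei passed the test as lower than in neurons by -1.35 (SE 0.529, adjusted p = 0.0278), and the call was lost without saline (-1.04), VPA (-1.13), the hM3 control (-1.08) or CNO replicate 2 (-1.17), with DESeq2 (-1.26), without the library block (-1.35), and with a minimum of 2000 UMIs per nucleus (-0.63).

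Arc, whose protein forms virus-like capsids and trims AMPA receptors at synapses, was higher in oligodendrocyte-like nuclei than in neurons. Oligodendrocyte-like nuclei read 4.97, 7.26, 5.62, 7.62 and 7.66 CPM (52 UMIs over 51 nuclei), while neuron-like nuclei read 0.689, 0.577, 0.574, 1.34 and 1.57 CPM. The lowest oligodendrocyte-like library was above the highest neuron-like library, and the log2 difference was 2.97 (SE 0.329, adjusted p = 6.65e-10). The neuron marker list summed to 937.3 to 2131 CPM in these nuclei and the microglial list to 23.9 to 58.4 CPM. The UMIs were spread thinly: 2.04% of oligodendrocyte-like nuclei had an Arc UMI, against 0.995% of the deeper neuron-like nuclei and 0.271% of astrocyte-like nuclei (median depth 2660 UMIs). Astrocyte-like nuclei read 0.421 to 1.89 CPM, a log2 difference from neurons of -0.01 (SE 0.490, adjusted p = 0.998). Arc passed the test as higher in microglia-like nuclei by 2.48 (SE 0.712, adjusted p = 0.00308), which rests on 7 UMIs, 3 of them in CNO replicate 2; the call was lost without that library, at 2.00, and with a minimum of 2000 UMIs per nucleus, at 2.18.

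Junb, the AP-1 subunit that often restrains JUN, was higher in microglia-like than in neuron-like nuclei in all 5 libraries. Microglia-like nuclei read 76.6, 41.6, 28.9, 26.1 and 74.5 CPM (45 UMIs) and neuron-like nuclei 3.79, 3.91, 3.62, 4.29 and 7.17 CPM, with no overlap and a log2 difference of 2.82 (SE 0.334, adjusted p = 3.04e-09). Vascular-like nuclei summed to 48.1 CPM (interval 32.9 to 67.9, 32 UMIs, 23 of them from CNO replicate 2). Vascular markers in microglia-like nuclei summed to 40.5 to 203.6 CPM, against 12520 to 16580 CPM in vascular-like nuclei, and microglial markers in vascular-like nuclei to 0 to 70.7 CPM. In oligodendrocyte-like nuclei Junb was lower than in neurons by -1.26 (SE 0.415, adjusted p = 0.00725), with 13 UMIs and none in VPA and hM3 control; without CNO replicate 1 this call was lost, at -1.06.

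Among astrocyte-like nuclei, Fos and Junb were higher in the interferon-rich cluster than outside it; with the cluster built from these cells, this is a description. Astrocyte-like Fos was 1.57, 2.68, 5.05, 6.80 and 10.3 CPM and astrocyte-like Junb 3.14, 1.78, 4.21, 7.93 and 9.73 CPM. Within the interferon-rich cluster, Fos read 18.0, 19.3 and 11.3 CPM in the control and the 2 CNO libraries of hM3 mice, and in the other astrocyte-like nuclei 1.59, 2.73, 2.94, 3.56 and 3.82 CPM in the 5 libraries. Junb read 18.0, 30.4 and 11.3 CPM inside the cluster, and outside it 3.18, 1.82, 1.96, 2.14 and 0 CPM, where the 0 of CNO replicate 2 allows up to 5.73 CPM. Every library with over 50 nuclei in the cluster was above all 5 values outside it, for both genes. The cluster held 8 and 22 nuclei in saline and VPA, where neither gene had a UMI in it.

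**Figure D2:**
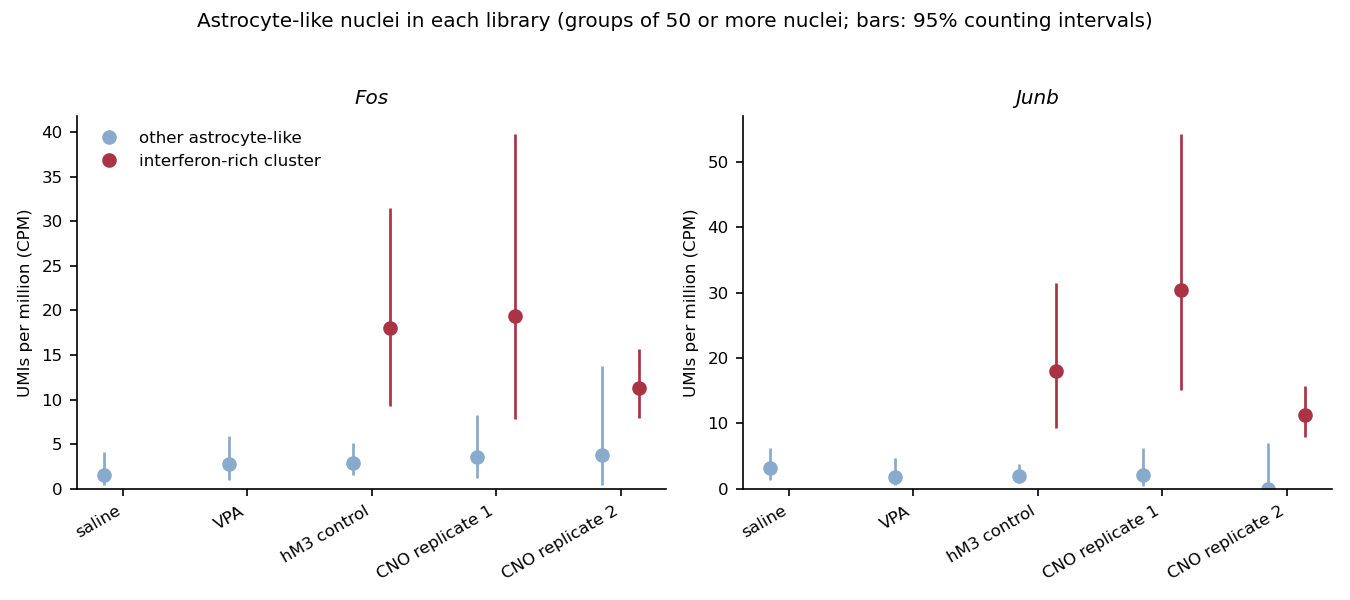
Fos and Junb (CPM, linear axis from 0) in astrocyte-like nuclei of each library, split into the interferon-rich cluster and the rest, with 95% counting intervals; groups under 50 nuclei are not drawn. Interferon-rich nuclei lie between 11.3 and 30.4 CPM and the other astrocyte-like nuclei between 0 and 3.82 CPM.

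For Junb, the tested difference between astrocyte-like and neuron-like nuclei was 0.13 (SE 0.231, adjusted p = 0.611), and without the interferon-rich cluster it was -1.02 (SE 0.326, adjusted p = 0.00582), so the direction turned. For Fos, which was below the filter on low counts and is given from the fit without it (26399 genes, of which 23.4% were higher and 27.4% lower), astrocyte-like nuclei were higher by 1.23 (SE 0.240, adjusted p = 9.86e-07), and without the cluster the call was lost at 0.51 (adjusted p = 0.2). Egr1, which couples growth-factor signals to transcription, gave 9.60 CPM in the cluster (6.89 to 13.02) and 3.26 CPM in the other astrocyte-like nuclei (2.27 to 4.53), all libraries summed. The cluster sum comes mostly from CNO replicate 2 (1439 of 1694 nuclei). Inside and outside the cluster, Egr1 was 18.0 and 3.18 CPM in the hM3 control, with intervals that do not overlap. Egr1 was 8.28 and 4.99 CPM in CNO replicate 1 and 7.24 and 1.91 CPM in CNO replicate 2, with overlapping intervals. Its astrocyte-like levels of 1.18, 6.24, 5.26, 5.66 and 6.49 CPM overlapped the neuron-like levels of 2.33, 4.57, 3.70, 4.88 and 5.40 CPM, and the log2 difference was 0.18 (SE 0.195, adjusted p = 0.397). The cluster's nuclei were shallower (median 2125.5 UMIs) than the other astrocyte-like nuclei (3080.5 UMIs), and the part of depth in these levels was not tested.

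Fosb and Egr3 rested on few UMIs in glia. Fosb had 60 UMIs in neuron-like nuclei (0.182, 0.256, 0.218, 0.462 and 0.354 CPM), 4 in astrocyte-like and 2 in oligodendrocyte-like nuclei. Scaled to depth, the Fosb level was 0.283 CPM in neuron-like (interval 0.216 to 0.364), 0.267 CPM in astrocyte-like (0.0726 to 0.683) and 0.264 CPM in oligodendrocyte-like nuclei (0.0319 to 0.953), and no class passed as different from neurons in the fit without a filter. Egr3 had 163 UMIs in neuron-like nuclei (0.547, 1.03, 0.455, 1.12 and 0.707 CPM), 4 in astrocyte-like nuclei (0.267 CPM in all) and 0 in oligodendrocyte-like nuclei, where a count of 0 allows up to 0.396 CPM. Egr3 passed the unfiltered test as lower in oligodendrocyte-like nuclei (adjusted p = 0.00533; 26.9% of all genes were lower), and the call was lost without CNO replicate 1. Homer1, the scaffold that ties metabotropic glutamate receptors to the postsynaptic density, was read in every class: 82.5, 96.1, 86.2, 102 and 74.5 CPM in neurons, 47.0 to 69.5 CPM in astrocyte-like and 47.9 to 75.5 CPM in oligodendrocyte-like nuclei. Its differences from neurons were -0.68 for astrocyte-like (SE 0.0931, adjusted p = 3.97e-08) and -0.38 for oligodendrocyte-like nuclei (SE 0.104, adjusted p = 0.00146), and -1.88 for microglia-like nuclei (SE 0.210, adjusted p = 8.01e-10).

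Other genes of the activity response also differed between classes. Of 18 other early-response genes tested, 9 were higher in astrocyte-like than in neuron-like nuclei (Btg2, Ier5, Jun, Zfp36, Jund, Klf2, Ier2, Per1 and Crem) and 4 lower (Nr4a2, Fosl2, Klf10 and Sik1), with a list median of 0.68 on the log2 scale against 0.01 over all genes, of which 37.3% were higher and 36.4% lower. Microglia-like nuclei gave 7 higher and 1 lower of these 18, where 25.3% of all genes were higher and 33.8% lower. Of 16 later effector genes, which early factors switch on in neurons, 11 were lower in astrocyte-like nuclei (36.4% of all genes), among them Bdnf, Vgf, Nptx2 and Inhba, and 3 higher, with a median of -0.98. Of 20 upstream signalling genes, 11 were lower in astrocyte-like nuclei, such as Camk2a and Camk4, calcium-dependent kinases, and 3 were higher, Creb1, Crebbp and Hdac4. Of 11 heat shock and handling-related genes tested, 7 were higher and 1 lower in astrocyte-like nuclei, against the same 37.3% and 36.4% of all genes.

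Between the transmitter classes the genes differed little. Of the 7 members tested, only Nr4a1 passed, lower in GABAergic-like than in glutamatergic-like neurons by -0.47 (SE 0.139, adjusted p = 0.0168), where 7.23% of genes tested were lower and 4.27% higher. GABAergic-like neurons read 7.56, 8.001, 9.81, 13.6 and 12.0 CPM of Nr4a1 and glutamatergic-like neurons 10.0, 9.45, 12.6, 24.4 and 14.9 CPM, higher in each library though the ranges overlap. The call was lost with DESeq2, without the library block, without saline and without CNO replicate 1. Among glutamatergic-like neurons, the thalamus-type-like cluster, led by Lef1, Vav3 and Synpo2, read 24.3, 25.9, 28.7, 49.5 and 27.5 CPM, while paraventricular-lineage-like neurons, also glutamatergic, read 4.56, 9.80, 10.96, 16.8 and 8.10 CPM. Fosb in GABAergic-like neurons had 47 of its 60 UMIs, a difference of 1.31 in the unfiltered fit (SE 0.549, adjusted p = 0.135; 3.78% of genes higher and 5.99% lower there).

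Among the 20 neuron clusters of 50 nuclei or more, the highest level of a gene often fell in a cluster with few nuclei or in 1 shared with other genes. The clusters are described and not tested here, with their highest and lowest levels; the 10 genes and the wider lists took no part in building them. Nr4a1 was 32.9 CPM in the thalamus-type-like cluster (interval 30.4 to 35.6, 620 UMIs), against a median of 9.51 CPM over clusters and a lowest of 6.65 CPM in a cluster led by Ucn3, Lmo3 and Trh. A cluster of 66 nuclei led by Pdzrn3, 6530403H02Rik and Xist gave 34.4 CPM (21.8 to 51.7), the highest value, which overlaps the thalamus-type-like value. In the thalamus-type-like cluster Junb was the lowest of all clusters, at 0.622, 0.576, 0, 1.79 and 1.86 CPM. In that cluster Nr4a1 and Junb thus stood at opposite ends of their ranges within the same nuclei.

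**Figure D3:**
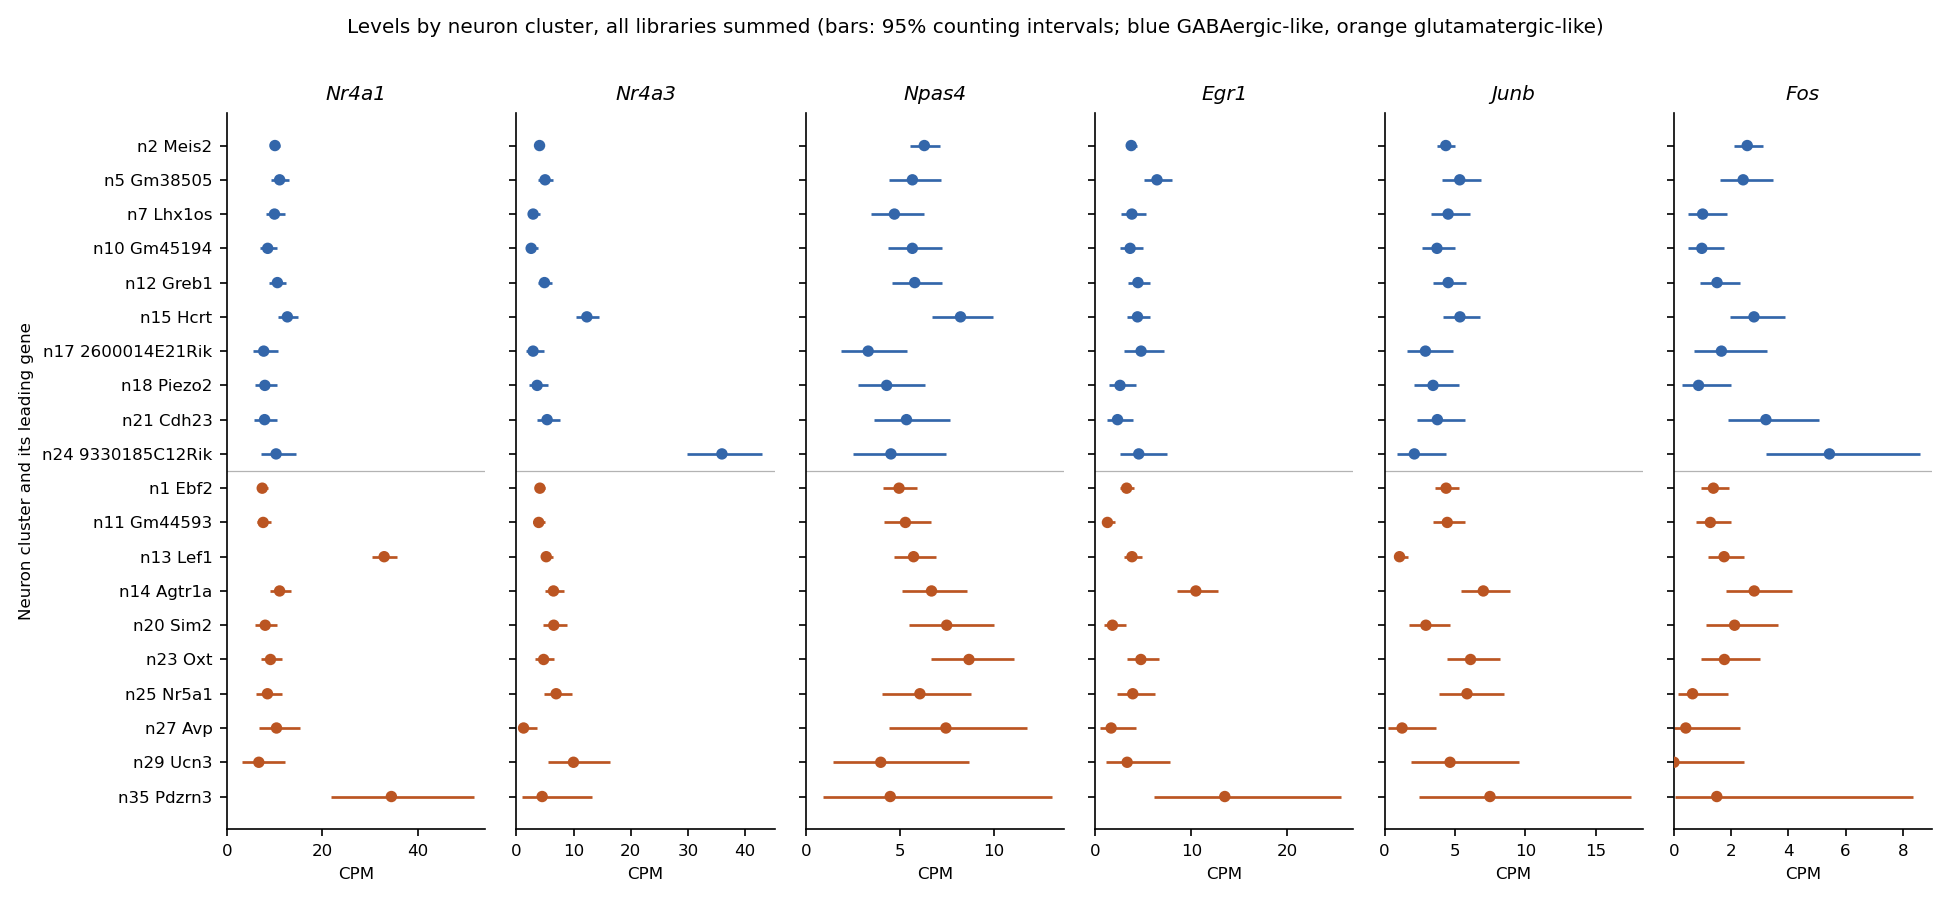
Level of 6 genes (CPM, linear axes from 0) in 20 neuron clusters, all libraries summed, with 95% counting intervals; clusters are labelled by number and leading gene, GABAergic-like in blue above the line and glutamatergic-like in orange below it. Nr4a3 is highest at 35.9 CPM in the cluster led by 9330185C12Rik, while Nr4a1 and Egr1 are highest in the 66-nucleus cluster led by Pdzrn3 (34.4 and 13.5 CPM, with wide intervals) and next in those led by Lef1 (32.9 CPM) and Agtr1a (10.5 CPM).

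Nr4a3 marked a different cluster, a GABAergic-like group of 373 nuclei led by 9330185C12Rik, Cdc14a and Vipr2, the receptor for vasoactive intestinal peptide. It read 35.9 CPM there (29.8 to 43.0), followed by 12.3 CPM (10.4 to 14.4) in a cluster led by Hcrt, Pde11a and Gal, and the median cluster had 4.82 CPM. In the 3 libraries with 50 or more of its nuclei the cluster ranked first, at 37.6 CPM in VPA, 18.1 CPM in the hM3 control and 62.1 CPM in CNO replicate 1. Saline and CNO replicate 2 held only 5 and 3 of its nuclei. Nr4a1 was near its median cluster there, at 10.3 CPM, while Fos was at its highest of the 20 clusters with libraries summed, 5.44 CPM (3.22 to 8.59), though first in only 1 of the 3 libraries. The lowest Nr4a3 level, 1.24 CPM (3 UMIs), was in the cluster led by Avp, Pla2r1 and Ebf3.

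Egr1 and Junb were both high in the paraventricular-lineage-like cluster led by Agtr1a, Ppp1r17 and Tns1, where Agtr1a encodes an angiotensin receptor. Egr1 read 2.37, 16.4, 8.995, 18.9 and 18.4 CPM there, lowest in saline, and 10.5 CPM in all (8.49 to 12.8). The hM3 libraries differ from saline in genotype, AAV and age, and have no counterpart without VPA. Junb read 5.08, 6.32, 8.995, 6.29 and 12.3 CPM in the same cluster. The cluster of 66 nuclei led by Pdzrn3 gave 7.49 CPM of Junb, 13.5 CPM of Egr1, 16.5 CPM of Egr3 and 324 CPM of Homer1, each the highest of the 20 as was its Nr4a1, but 6 of its 9 Egr1 UMIs came from the 7 nuclei of CNO replicate 2. Its Junb interval (2.43 to 17.5) spans the 7.02 CPM of the Agtr1a-led cluster, and its Junb was first in 0 of 2 libraries. That cluster also carries Slc17a7 and Xist among its leading genes, although the mice are labelled male. The lowest Egr1 was 1.27 CPM in the Reln-expressing cluster led by Gm44593.

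With all libraries summed, the OT-like cluster of oxytocin neurons (436 nuclei) had the highest Npas4 and the lowest Homer1, but it ranked first for Npas4 in only 1 of 5 libraries, and 16 of its 64 Npas4 UMIs came from VPA. Npas4 read 5.84, 16.1, 7.78, 5.85 and 10.4 CPM there, 8.69 CPM in all (6.69 to 11.1), but the next cluster, led by Hcrt, read 8.24 CPM (6.72 to 9.99), and over clusters Npas4 ranged only from 3.32 to 8.69 CPM. Homer1 in OT-like nuclei was 57.6, 49.3, 73.5, 85.2 and 44.3 CPM, 65.0 CPM in all, against 76.5 CPM in the thalamus-type-like cluster and a median cluster of 92.2 CPM. Fos in OT-like nuclei was 0, 3.02, 1.06, 4.18 and 1.74 CPM on 13 UMIs, and Fosb had none, which allows up to 0.407 CPM. Egr1 read 1.67, 1.01, 5.30, 12.5 and 1.74 CPM there. The higher values rest on few nuclei: 15 UMIs in 7 of 135 nuclei in the control, 1 of them with 7 UMIs, and 15 UMIs in 5 of 52 nuclei in CNO replicate 1. Arc was highest in a GABAergic-like cluster led by Piezo2, Meis2 and Kcnmb2 (3.27 CPM, 1.97 to 5.11), first in 3 of 5 libraries.

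Pearson r between pairs of the genes across neuron clusters was low for most pairs, but several genes had few UMIs for such a comparison. Over 73 sums of a neuron cluster in a library, the median Pearson r between pairs of the 10 genes was 0.103 on log2(CPM + 10), the highest 0.549 (Junb with Egr1), then 0.430 (Egr1 with Egr3) and 0.413 (Fos with Nr4a1). The 5 genes most like the mean of the 9 members other than Homer1, of 9160 compared, were Eif4a1 (r = 0.757), Csf2ra (0.681), Rpl38 (0.643), Son (0.641) and Sf1 (0.637). These sums share libraries, depth and clusters, and the r values describe them only. Fosb and Egr3 had 60 and 163 UMIs in all neuron-like nuclei (0.283 and 0.769 CPM), far below the 10 CPM added before the log. Counting error at such levels lowers r, and its part was not tested. A low r therefore cannot show that such genes vary apart.

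Within single nuclei, most of the genes were found more often where Fos was also found. Homer1, read at far higher levels, was left out of these counts. Of the 17182 neuron-like nuclei, 12944 had no UMI of the other 9 genes, 3211 had 1 of them, 734 had 2, and 293 had 3 or more, up to 7 in 1 nucleus of CNO replicate 2. Depth was equalised by thinning nuclei to 10000 UMIs, which left 118 nuclei with a Fos UMI and 8152 without. Nr4a3 was found in 23.7% of nuclei with Fos (interval 16.4 to 32.4) and 2.93% of those without (2.58 to 3.32). Nr4a1 was found in 31.4% and 9.36%, Npas4 in 15.3% and 5.43%, Junb in 14.4% and 3.62%, Egr1 in 12.7% and 2.58%, and Fosb in 4.24% and 0.209%, and for these 5 the intervals do not overlap. For Arc (2.54% and 0.810%) and Egr3 (0.848% and 0.613%) the intervals overlap. These intervals treat nuclei of all 5 libraries and all neuron clusters as 1 pool and cover counting error only. Thinning leaves out most nuclei of VPA and CNO replicate 2. With libraries summed, the cluster led by 9330185C12Rik held both the highest Fos and the highest Nr4a3. The part of cell type in these shares was not tested. Without thinning, nuclei with Fos were deeper than those without in each library, and Nr4a3 was found in a larger share of them. Its share with and without Fos was 29.4% and 3.26% in saline, 17.8% and 2.95% in VPA, 35.4% and 4.48% in the control library, and 35.0% and 6.83% in CNO replicate 1. In CNO replicate 2 it was 3.77% (2 of 53 nuclei) and 1.59%. Fosb was found in 0 of 73 VPA nuclei with Fos and in 0.176% of the others there.

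**Figure D4:**
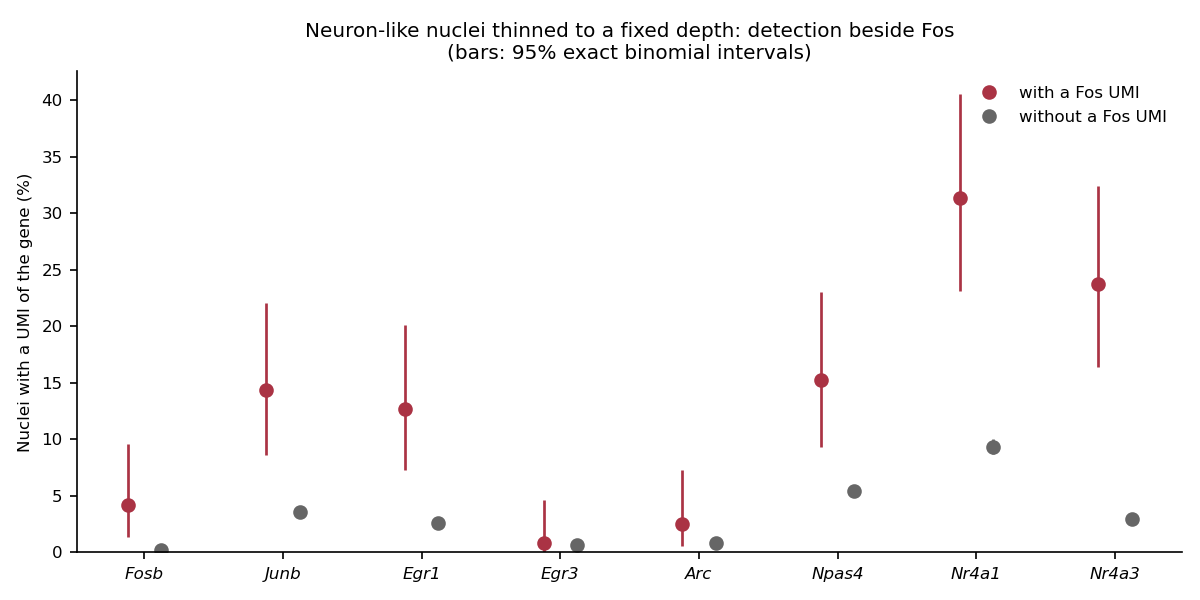
Share of neuron-like nuclei with a UMI of each gene (percent, linear axis from 0) among nuclei with and without a Fos UMI, all thinned to 10000 UMIs, with 95% exact binomial intervals. Nr4a3 stands at 23.7% with Fos and 2.93% without, while Egr3 stands at 0.848% and 0.613%.

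Nuclei with several of the genes were rare in every library at equal depth. After thinning to 2000 UMIs, 3 or more of the 9 genes were found in 0 of 3411 neuron-like nuclei in saline (a count of 0 allows 0.088%), 1 of 6872 in VPA (0.0146%), 0 of 2706 in the hM3 control, 3 of 2322 in CNO replicate 1 (0.129%) and 1 of 1759 in CNO replicate 2 (0.0569%). With predicted doublets kept, the numbers were 1 of 3505, 4 of 7456, 0 of 2788, 1 of 2339 and 1 of 1824, so no order of the libraries can be read from them. Without thinning the shares were 1.08%, 0.420%, 2.61%, 5.27% and 1.82%. At equal depth Nr4a1 was found in 1.91%, 1.54%, 2.14%, 3.53% and 3.01% of neuron-like nuclei, and unthinned in 10.3%, 5.18%, 14.6%, 20.8% and 11.9%, against 0.399% of oligodendrocyte-like nuclei unthinned at a median of 2703 UMIs.

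Prenatal VPA against saline compares 1 library of Ai9 mice each, so it has no test. In neuron-like nuclei Egr1, Fos, Egr3 and Nr4a3 were higher in VPA by 0.97, 1.06, 0.91 and 0.67 on the log2 scale, on 214 against 115, 79 against 40, 48 against 27 and 287 against 191 UMIs. The counting interval lay above 0 for 6 of the 10 genes, these 4 with Npas4 (0.38, interval 0.11 to 0.64) and Homer1 (0.22, 0.16 to 0.28), where it lay above 0 for 23.4% of all 25020 genes and below for 11.2%. Junb (0.05, -0.26 to 0.35) and Nr4a1 (-0.05, -0.25 to 0.15) did not differ beyond counting error, and Arc was -0.25 (-1.04 to 0.52) and Fosb 0.49 (-0.88 to 1.92). Fosb turned to -0.23 with equal weight for each neuron cluster, and Junb to -0.026 with TMM scaling. The median of the 10 was 0.43. Counting error leaves out the spread between pools of mice, which these libraries do not show. Neuron-like nuclei of saline and VPA also differed in median depth (13035 and 6086 UMIs) and in GABAergic share (49.16% and 62.07%). Their oligodendrocyte markers summed to 56.4 and 74.7 CPM and their astrocyte markers to 93.2 and 81.4 CPM. The part of these values in the ratios was not tested.

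By the rule used for size, 1.5-fold on CPM + 1 among genes at 5 CPM or more, 0 of the 4 members that reached that level passed (Npas4, Nr4a1, Nr4a3 and Homer1), with 1.51% of 11091 genes higher and 1.14% lower. Rescaling by TMM turned the split of genes past the fold from 167 higher and 126 lower to 93 higher and 172 lower. Without the minimum level, Egr1 passed and the other 9 did not (1.23% of 25020 genes higher, 0.915% lower). With the minimum level in GABAergic-like neurons alone, Nr4a3 passed as higher, 1 of 3 members (1.76% of genes higher, 0.778% lower). In glutamatergic-like neurons 0 of 3 passed (2.04% higher, 1.52% lower). Egr1 and Nr4a3 were higher in VPA in most clusters: Egr1 in 13 of 18 clusters, with the interval above 0 in 3, and Nr4a3 in 13 of 17, with 3 above 0; 14 of 17 were higher for Fos, with 0 above. The cluster with the highest Nr4a3 held 233 nuclei in VPA and 5 in saline, and the thalamus-type-like cluster with high Nr4a1 made up 2.52% and 8.79% of neurons. With equal weight for each shared cluster, Nr4a3 was 0.56 and Nr4a1 0.15 on the log2 scale. Egr1 was higher in VPA in both GABAergic-like (1.00, 0.53 to 1.49) and glutamatergic-like neurons (0.90, 0.41 to 1.40), and the difference between these was not tested.

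Neonatal CNO against saline in hM3 mice compares 2 libraries with 1. In CNO replicate 1 all 10 genes were above the control in neuron-like nuclei, and the interval lay above 0 for 7 (Egr1, Egr3, Arc, Npas4, Nr4a1, Nr4a3 and Homer1; background 26.6% above and 10.7% below). In CNO replicate 2 it lay above 0 for 6 (Fos, Junb, Egr1, Arc, Npas4 and Nr4a1; background 26.2%) and below 0 for Nr4a3 and Homer1 (background 14.3%). Arc was higher in both, at 0.574 CPM in the control and 1.34 and 1.57 CPM in the CNO libraries, log2 ratios of 1.22 (0.56 to 1.92) and 1.45 (0.67 to 2.23). Npas4 was 0.58 and 0.44 above the control and Nr4a1 0.71 and 0.30. Nr4a3 went opposite ways, 0.90 (0.66 to 1.14) and -0.87 (-1.34 to -0.42), and Homer1 0.24 and -0.21.

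**Figure D5:**
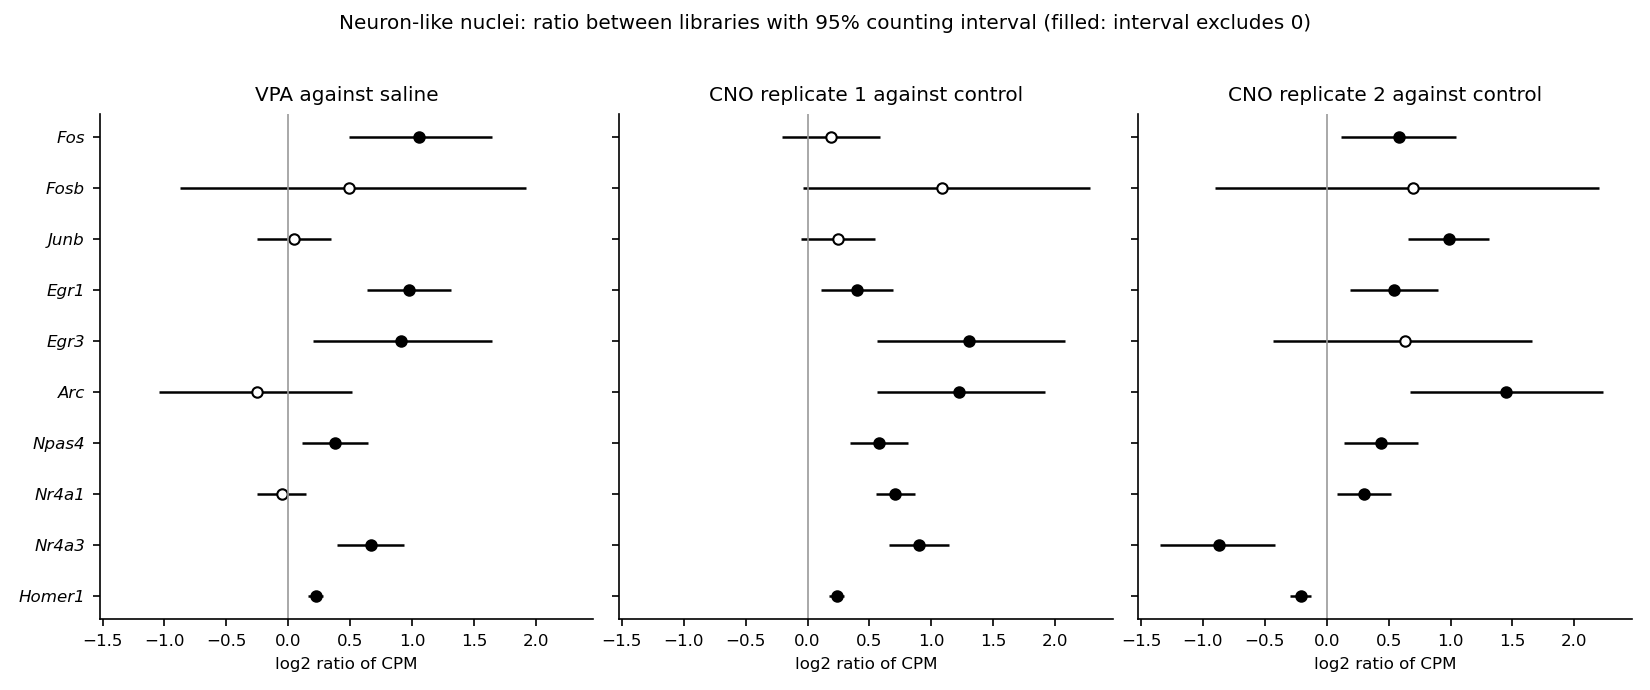
Log2 ratio of CPM in neuron-like nuclei between the libraries named above each panel, with 95% counting intervals; filled points have an interval that leaves out 0. Arc lies at -0.25 in VPA and at 1.22 and 1.45 in the 2 CNO libraries, and Nr4a3 at 0.67, 0.90 and -0.87.

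Across both CNO libraries, edgeR's quasi-likelihood test with 1 residual degree of freedom called 0 of the 10 genes, and 0 at an unadjusted p below 0.05, among 19386 genes of which 39 (0.201%) were called and 828 had an unadjusted p below 0.05. DESeq2 called 14 genes. The fitted log2 difference was 1.23 for Arc (SE 0.675, adjusted p = 1), 0.55 for Junb (SE 0.428) and 0.20 for Nr4a3 (SE 0.414), all with an adjusted p of 1, and 9 of 10 were positive with Homer1 the exception at -0.07. In GABAergic-like neurons Arc was 0.526, 1.56 and 1.99 CPM in control, CNO replicate 1 and CNO replicate 2, a fitted difference of 1.62 (SE 0.742, unadjusted p = 0.0312, adjusted p = 1; 0.0602% of genes called). The difference between GABAergic-like and glutamatergic-like neurons had its smallest p among the 10 for Junb, at 0.73 (SE 0.318, adjusted p = 0.461; 1.96% of genes called in that test). By the size rule, Nr4a1 and Nr4a3 passed in CNO replicate 1 (3.74% of genes higher) and Junb in CNO replicate 2 (10.4%), and 0 passed in both, of the 5 members whose mean over the 3 libraries reached the minimum level (Junb, Npas4, Nr4a1, Nr4a3 and Homer1), where 1.65% of genes were higher and 0.0441% lower; Arc lay below that level. These calls depend on the settings. With equal weight for each cluster Npas4 and Nr4a3 passed in CNO replicate 1 and Nr4a1 did not (3.73% of genes higher, 0.231% lower), with a pseudocount of 10 CPM 0 passed in either library (0.806% and 4.08% of genes higher), and without the minimum level Arc also passed as higher and Nr4a3 as lower in CNO replicate 2 (8.82% of genes higher, 0.878% lower).

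Other values moved with these libraries. Thalamus-type-like nuclei made up 3.64%, 9.08% and 13.2% of neurons in control, CNO replicate 1 and CNO replicate 2, and with equal weight for each shared cluster Nr4a1 was 0.58 and 0.15 above the control and Arc 1.26 and 0.91. The interferon list summed to 34.5, 23.4 and 37.9 CPM in neuron-like nuclei of these libraries against 4.38 and 4.28 CPM in saline and VPA. The heat shock list summed to 236.5, 290.2, 305.4, 354.8 and 317.6 CPM in the 5 libraries, and the other early-response list to 76.9, 97.95, 92.4, 107.5 and 113.4 CPM, lowest in saline for both. In neuron-like nuclei of control, CNO replicate 1 and CNO replicate 2, oligodendrocyte markers summed to 67.4, 87.8 and 99.8 CPM, astrocyte markers to 91.1, 108.0 and 135.5 CPM, and the mitochondrial share was 0.00180%, 0.00368% and 0.00543%. Arc, higher in both CNO libraries, was at 6.86 CPM in oligodendrocyte-like nuclei. The part of these values in the differences was not tested. The CNO fit of neuron-like nuclei called few genes of any kind, as given above, and none of the other early-response or later effector genes. Of the other early-response genes 17 of 21 were positive, with a list median of 0.51 against 0.02 over all genes. Of the later effector genes 11 of 17 were positive, with a list median of 0.20.

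In astrocyte-like nuclei Junb passed the size rule in both CNO libraries (5.74% of genes), at 7.93 and 9.73 CPM against 4.21 CPM, and Fos in CNO replicate 2 (18.3% of genes). In astrocyte-like nuclei of control, CNO replicate 1 and CNO replicate 2 the heat shock list summed to 447.2, 631.0 and 758.8 CPM, oligodendrocyte markers to 330.2, 918.2 and 684.7 CPM, and the mitochondrial share was 0.0495%, 0.111% and 0.0949%; their part was not tested. The interferon-rich cluster held 13.97%, 21.5% and 91.0% of the astrocyte-like nuclei in the same libraries. Inside the cluster Junb was 18.0, 30.4 and 11.3 CPM and Fos 18.0, 19.3 and 11.3 CPM. Outside it Junb was 1.96, 2.14 and 0 CPM and Fos 2.94, 3.56 and 3.82 CPM. In CNO replicate 2 Junb was thus below the control both inside and outside the cluster. The part of the cluster share in the class values was not tested. The fitted difference for astrocyte-like Junb was 1.00 (SE 0.573, adjusted p = 0.998), and 0 of the 4 members tested there were called (0.0362% of 13817 genes). Genes lower by the size rule made up 3.75%, 3.11% and 0.416% in CNO replicate 1, CNO replicate 2 and both, with 0 of the 4 members at the minimum level (Fos, Junb, Egr1 and Homer1) among them. For VPA against saline only 1 member reached the minimum level in astrocyte-like nuclei and it did not pass (9.58% of genes higher, 4.41% lower). In oligodendrocyte-like nuclei 0 of 2 members tested were called after CNO (0.0194% of genes). The CNO difference did not differ between astrocyte-like and neuron-like nuclei past the threshold for any of the 10 (0.172% of genes called), nor between oligodendrocyte-like and neuron-like nuclei (0.0236%). Few glial UMIs left wide errors, such as an SE of 6.846 for Fosb in astrocyte-like and 5.293 for Fos in oligodendrocyte-like nuclei. For such genes these contrasts decide nothing.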

How the data were processed

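Single-nucleus RNA was measured in 5 droplet libraries. The deposited files hold raw UMI counts per gene and barcode, made by the authors with Cell Ranger 7.0.1, per the file headers and the submitters' processing notes, which name mm10; intron and strand settings are not given in the sources used here. Total counts were 52506958 to 76243280 per library. Barcodes with under 1000 UMIs or over 5% mitochondrial counts were removed. Predicted doublets were removed by Scrublet rank at 0.8% per 1000 barcodes. Nuclei were clustered with scanpy 1.11.5 (2000 variable genes without the 10 genes and related lists, 30 components, 20 neighbours, Leiden resolution 1) and named from markers, so names may differ from the study's. Counts were summed per class and library (20 nuclei or more) and tested with edgeR 4.0.16 (quasi-likelihood, Benjamini-Hochberg adjusted p, threshold 0.05) over all genes, with library as a block for classes. CNO was tested as 2 libraries against 1, which assumes that the lone control varies like the CNO libraries. DESeq2 1.42.0 was an alternative. Saline and VPA have no test: log2 ratios carry exact binomial counting intervals, which cover counting error only, as do all intervals here. A count of 0 allows up to 3 counts. Each scripted test was tested on simulated data. The genes named are the 10 members, listed pathway genes that passed, and the 5 genes most correlated with the mean of the members other than Homer1 over neuron clusters. Clusters are named where a member was highest or lowest. The members and lists were chosen with earlier results of these data known. The labels do not say that the CNO libraries came from separate litters, so p-values measure the spread between these libraries.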

Additional observations from a re-analysis of the deposited data

Results flagged for a closer look

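Npas4 after CNO went opposite ways in astrocyte-like and neuron-like nuclei. Against the hM3 control, both CNO libraries were lower in astrocyte-like nuclei (0.566 and 0.270 CPM against 0.631 CPM) and higher in neuron-like nuclei (7.89 and 7.17 CPM against 5.28 CPM). The difference between the classes was -1.29 on the log2 scale (SE 1.415, edgeR adjusted p = 1), and the astrocyte-like values rest on 3, 1 and 1 UMIs.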

How the results depend on the processing

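Of the alternatives for single genes, 528 kept direction and side of the threshold, 16 lost the call, 5 gained one, 16 turned direction and 3 moved beyond their error. Of those for the comparisons' own values, 70 stayed and 30 moved. Leaving out 1 library at a time gave 2 to 5 genes called for astrocyte-like, 2 to 6 genes called for oligodendrocyte-like, 2 to 3 genes called for microglia-like and 0 to 1 genes called for GABAergic-like against glutamatergic-like nuclei, against 4, 6, 4 and 1 with all libraries; in these fits 68.5% to 72.8% of all genes were called for astrocyte-like and 65.3% to 67.2% for oligodendrocyte-like nuclei, 51.6% to 56.8% for microglia-like nuclei and 8.64% to 11.6% between the neuron classes. Without the interferon-rich cluster (chosen after seeing the data) 3 genes were called for oligodendrocyte-like nuclei, with only 3 of the 10 tested. In that fit 70.6% of all 13766 genes were called for these nuclei. Without CNO replicate 1, 3 were also all that could be tested. For GABAergic-like against glutamatergic-like neurons 0 were called with DESeq2 (7.38% of all genes called) and 0 without the library block (4.58%), against 11.5% of all genes in the main fit. Junb in astrocyte-like nuclei, not called with all nuclei, was called lower without the interferon-rich cluster (-1.02). Directions turned without a call for Fosb in astrocyte-like nuclei without that cluster (-0.30), without saline (-0.56) and without VPA (-0.0024), and for Arc in astrocyte-like nuclei with doublets kept (0.033), without the library block (0.036) and without the hM3 control (0.088; -0.20 to 0.088 over the libraries left out). Fosb in oligodendrocyte-like nuclei turned without the cluster (-0.0082) and without the hM3 control (-0.71), and in microglia-like nuclei with DESeq2 (1.61). Nr4a3 in microglia-like nuclei turned with doublets kept (-0.0100), at clustering resolution 2 (-1.14) and without a filter (-0.069). Between the transmitter classes Junb turned without CNO replicate 2 (-0.0058; up to 0.21 without the hM3 control), Egr1 at resolution 2 (0.15) and Nr4a3 without VPA (-0.052). The cause was not tested. For VPA, the 293 genes past 1.5-fold became 536 without a filter (with 1 of the 10 genes, Egr1), 68 with a pseudocount of 10 CPM and 193 with equal cluster weights. For CNO, the 39 genes called became 14 with DESeq2 and 22 with the Lhx9-led cluster counted as neurons. The fitted median of the 10 genes was 0.42. Medians of CPM ratios, another measure, were 0.64 in CNO replicate 1 and 0.56 in CNO replicate 2, and with equal cluster weights 0.49 and 0.71, with a mean of 0.60. Thinned to 2000 UMIs, at least 2 of the 9 genes other than Homer1 were found in 0.176%, 0.422%, 0.443%, 0.646% and 0.569% of neuron-like nuclei in the 5 libraries. For 3 or more the shares were 1.08%, 0.420%, 2.61%, 5.27% and 1.82% without thinning, and 0% in VPA and both CNO libraries thinned to 1000 UMIs. With doublets kept, thinned to 2000 UMIs, the 5 shares for 3 or more were 0.0285%, 0.0536%, 0%, 0.0428% and 0.0548%. No paired analysis was possible because the groups compared share fewer than 2 replicate numbers. Fosb, Egr3 and most glial values are limited by few UMIs.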
